A study of Mus musculus with 2 samples.

Results

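The SLAM family receptors and the SH2 adaptors SAP and TSAd were followed as 9 genes chosen by symbol, of which 7 encode receptors (Slamf1, Slamf6, Slamf7, Ly9, Cd84, Cd48 and Cd244) and 2 encode adaptors (Sh2d1a and Sh2d2a). Probe sets that the platform annotation pairs with a single gene symbol were found for 7 of these 9 genes, among 17097 genes with a value in the series. Cd244 was found under its newer symbol Cd244a. No probe set is paired with Slamf7 or Cd48 alone in the annotation used here, so neither gene was analysed here. The 7 measured genes are covered by 13 probe sets.

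The series holds 2 Affymetrix arrays of the type HT_MG-430 PM, 1 for each condition. Naive CD4+ T cells, which were CD62L high, CD44 low and Foxp3-negative, had been sorted from 6-week-old C57/Bl6 Foxp3-eGFP reporter mice, in which regulatory T cells are green. They were cultured for 48 hours with soluble antibody to CD3 and with splenocytes depleted of CD3+ cells as antigen-presenting cells (APC), treated with mitomycin C at 50 ug/ml and taken either from wild type (Wt) B6 mice or from OX40L-Tg mice, which carry a transgene for the ligand of the costimulatory receptor OX40. The T cells of both conditions carried the same reporter, and living CD4+ T cells were sorted again before RNA was taken. The promoter of the OX40L transgene, the number of mice and any pooling are not given in the sources used here. With 1 array per condition no difference can be tested, and nothing measures the spread between cultures. In such bulk RNA, fewer cells of a type and less RNA per cell cannot be told apart.

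SLAM receptors are surface proteins of the immunoglobulin superfamily that sit on T cells, B cells and other blood cells. Most of them bind a copy of themselves on a neighbouring cell, so a T cell and an APC can engage them from both sides. The tails of most of them carry tyrosine switch motifs that recruit the small adaptor SAP, which brings in the kinase Fyn, whereas CD48 is held in the membrane by a lipid anchor and has no such tail. In CD4 T cells this route is known for its part in IL-4 production and in the long contacts of follicular helper T cells with B cells.

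The 7 receptor genes lie in 1 cluster on mouse chromosome 1, in the order Cd244a, Ly9, Slamf7, Cd48, Slamf1, Cd84 and Slamf6 in the RefSeq gene table of assembly GRCm38.p6. From Cd244a to Slamf6, both included, the table lists 15 genes, 8 of which are protein-coding, and the 1 protein-coding gene there that encodes no SLAM receptor, Tma7-ps, had no value. Slamf1 and Slamf6, with Cd84 between them, showed the largest differences of the measured members, in opposite directions. The 250 bases upstream of their annotated starts are therefore shown, from RefSeq's GRCm38.p6, both on the plus strand, at chr1:171766882-171767131 for Slamf1 and chr1:171917212-171917461 for Slamf6. Capitals mark every match, on either strand, to any of 8 motifs searched. These were GATAA for GATA factors, AGGAAG for ETS factors, CANNTG (the E-box), TGANTCA for AP-1, TGTGGT for RUNX factors, CTTTGA for TCF factors, TTCNNNGAA for STAT factors and the NF-kB motif.
Slamf1: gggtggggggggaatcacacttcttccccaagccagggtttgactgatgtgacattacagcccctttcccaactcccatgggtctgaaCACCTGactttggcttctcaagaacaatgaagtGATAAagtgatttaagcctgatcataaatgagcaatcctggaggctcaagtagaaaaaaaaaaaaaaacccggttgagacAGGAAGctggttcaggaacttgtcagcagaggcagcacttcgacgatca
Slamf6: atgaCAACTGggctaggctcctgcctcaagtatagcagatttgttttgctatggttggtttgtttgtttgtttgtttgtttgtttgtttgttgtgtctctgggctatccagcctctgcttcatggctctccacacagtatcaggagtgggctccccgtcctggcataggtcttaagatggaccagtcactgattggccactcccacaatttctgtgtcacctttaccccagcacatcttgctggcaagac

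In the Slamf1 sequence the capitals are an E-box that starts 162 bases before the gene's start, GATAA 129 bases before it and AGGAAG 49 bases before it. The Slamf6 sequence holds an E-box 246 bases before the start and no other of these letters. The matches do not overlap one another. Among 32851 upstream windows of the same length, 66.2% hold CANNTG, 29.5% AGGAAG and 22.6% GATAA. Such a match is a string of letters and shows no binding. RefSeq windows were found for 6 of the 9 members. The AP-1 letters, held by 6.75% of all windows, stand once each in those of Cd244a, Slamf7 and Cd84, and the NF-kB and STAT motifs, held by 7.25% and 7.02% of all windows, stand in none of the 6.

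Of the 6 members above the floor, Slamf1 was 2-fold higher with OX40L-Tg APC, Slamf6 was 3-fold lower, and the other 4 stood within 1.5-fold. The floor was each array's own median (3.88 in log2 units on either one), and 10541 genes reached it on at least 1 array. A background level was set by genes restricted to other organs, at 29.8 units for Wt APC and at 27.9 units for OX40L-Tg APC. Of 61 such genes with a value, 4 reached it, namely Tg at 3302 and 4491 units, Krt10, Mylpf and Camk2a. The level is the value of Camk2a, so calls close to it depend on the list chosen. Whether the Tg probe set reports that gene was not checked. The 9 member probe sets above the floor were above background on both arrays. Each difference is the log2 intensity with OX40L-Tg APC less that with Wt APC.

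Slamf1 encodes CD150, the founding receptor of the family and its own ligand. Its brightest probe set, 1425570_PM_at, read 478.3 units in the Wt APC culture and 957.9 units in the OX40L-Tg APC culture, a difference of 1.00 or 2.00-fold. The probe set 1425569_PM_a_at read 152.0 and 329.6 units, a difference of 1.12. The probe set 1425571_PM_at read 124.5 and 276.7 units, a difference of 1.15. All 3 probe sets were higher with OX40L-Tg APC, and their differences spanned 0.15. In 3172 genes with at least 2 probe sets above background, the 2 brightest differed by a median of 0.09 and by less than 0.36 in 95% of genes. The span of Slamf1 covers 3 probe sets, whereas its 2 brightest stood at 1.00 and 1.12. The annotation gives the same source sequence for all 3, so they are not independent readings.

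Slamf6 encodes Ly108, a receptor of T, B and NK cells that binds itself. Its brightest probe set, 1425086_PM_a_at, read 261.9 units in the Wt APC culture and 83.4 units in the OX40L-Tg APC culture, a difference of -1.65 or 3.14-fold lower. The probe set 1420659_PM_at read 111.5 and 45.1 units, a difference of -1.31 or 2.47-fold lower. Both were lower with OX40L-Tg APC and differed from each other by 0.35. That gap is close to the 0.36 under which 95% of the 3172 genes stayed. The size of the difference thus depends on the probe set. The probe set 1457773_PM_at read 14.7 and 9.65 units, below the floor on both arrays, and carries no information on the size. The differences of Slamf1 and Slamf6 were 2.65 apart on the log2 scale.

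The other receptors differed little or were not above background. Ly9, which encodes the homophilic receptor CD229, read 497.1 units in the Wt APC culture and 553.0 units in the OX40L-Tg APC culture, a difference of 0.15. Cd84, which encodes a homophilic receptor of B cells, T cells and myeloid cells, read 209.2 and 166.3 units, a difference of -0.33. Its probe set 1446505_PM_at was below the floor on both arrays, at 12.8 units or less. Cd244, which encodes the receptor for CD48 on NK cells and some CD8 T cells, read 11.2 and 9.64 units in one probe set and 8.89 and 9.55 units in the other. All 4 values of Cd244 were below the floor and the background level, so no direction was read from them.

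Both adaptor genes were well above background and slightly lower with OX40L-Tg APC. Sh2d1a, which encodes SAP, read 1813 units in the Wt APC culture and 1616 units in the OX40L-Tg APC culture, a difference of -0.17. Sh2d2a encodes TSAd, a T cell adaptor with an SH2 domain that binds the kinase Lck. It read 866.4 and 683.9 units, a difference of -0.34 or 1.27-fold lower. Each rests on 1 probe set.

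**Figure D1:**
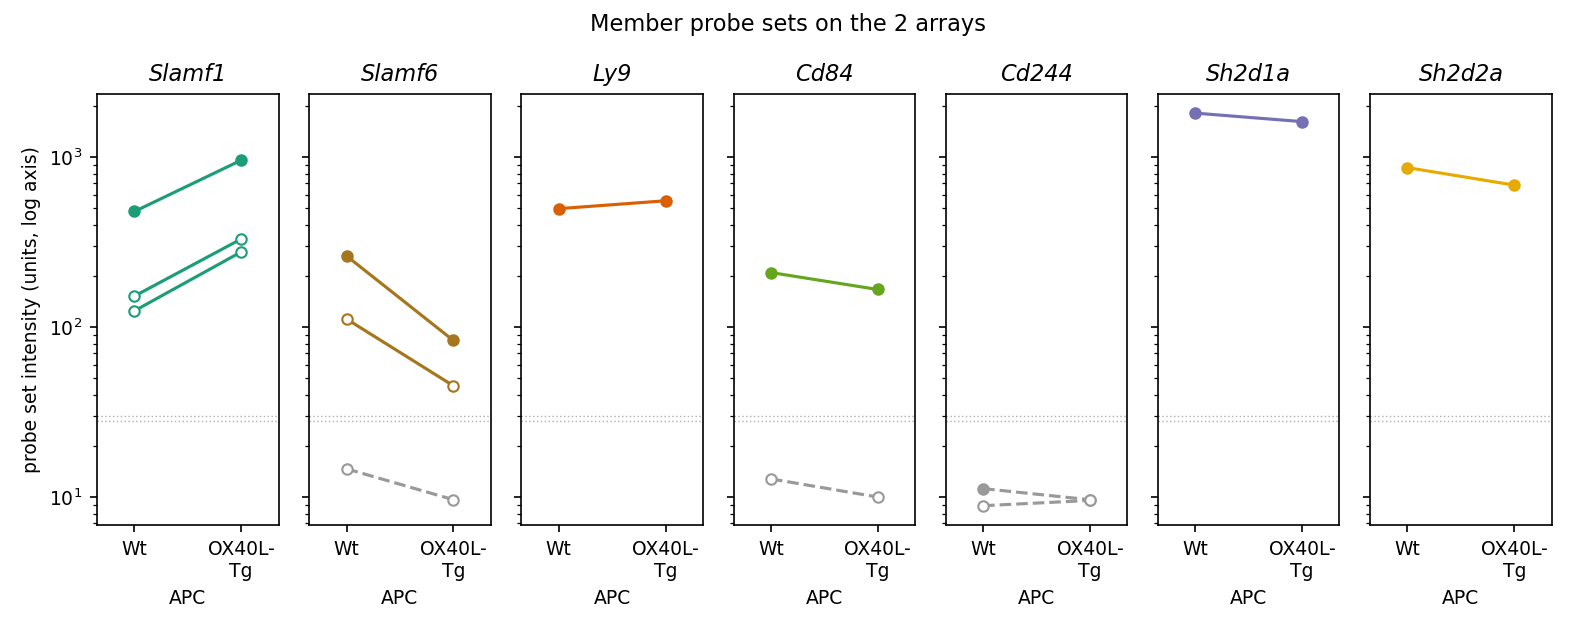
Intensity of each member probe set in units on a log axis, with the Wt APC array at the left and the OX40L-Tg APC array at the right of each panel. Filled points mark the probe set with the highest mean, which stands for the gene; grey dashed lines are below the floor, and dotted lines are the background levels of 29.8 and 27.9 units. The 3 lines of Slamf1 slope upward, the 2 coloured lines of Slamf6 downward, and those of the other members above the floor are nearly level.

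Set beside all genes, Slamf6 had the 29th lowest difference of the 10541 genes above the floor, and Slamf1 the 163rd highest. Among those genes 1.56% were higher by 2-fold or more with OX40L-Tg APC, against 1 of the 6 members, and 1.17% were at least 2-fold lower, again against 1 of the 6. Past 2-fold in either direction were 2.72% of genes and 2 of the 6 members, and past 1.5-fold 7.21% of genes and the same 2 members, Slamf1 and Slamf6. With 6 genes these shares are a description only. The members' median difference was -0.25, against 0.02 over all genes above the floor, and 4 of the 6 were lower, against 46.0% of all genes. Their median absolute difference was 0.34, against 0.14 over all genes. The differences of Sh2d2a and Cd84 exceeded those of 81.4% and 80.5% of genes in size, those of Sh2d1a and Ly9 56.4% and 53.5%. The call of Slamf1 sits on the threshold: its difference was 0.97 after quantile normalization, 0.97 after a lowess correction and 0.98 with 16 units added before log2, each just under 2-fold, and 1.09 as the mean of its probe sets. Slamf6 stayed past 2-fold under every setting run, between -1.69 and -1.19.

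**Figure D2:**
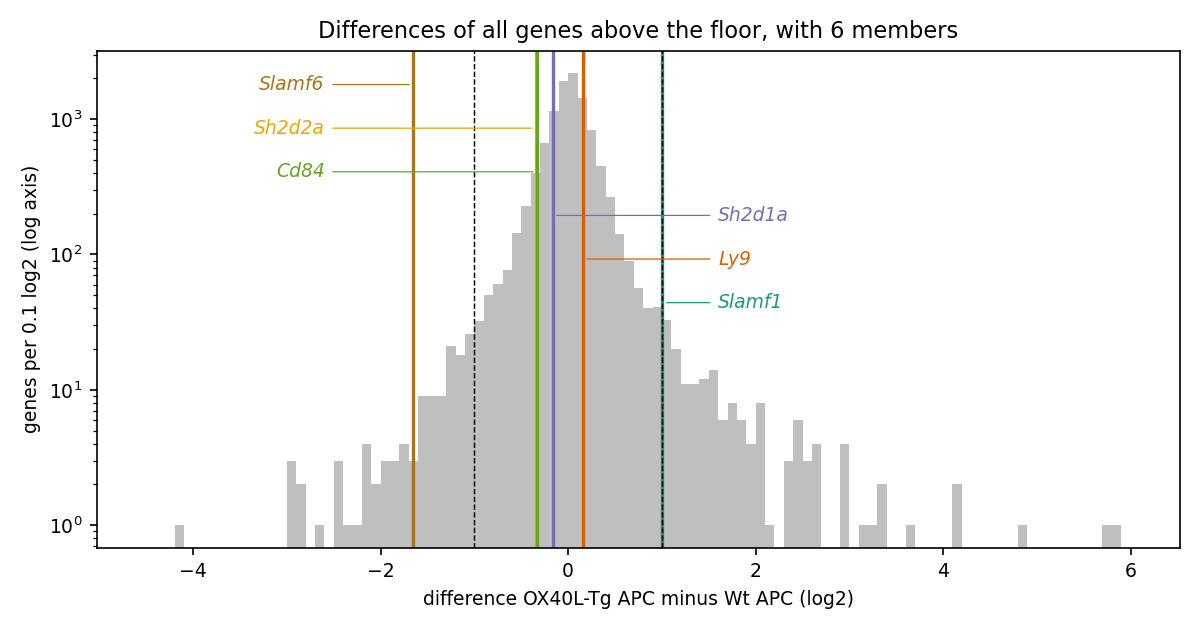
Number of genes per 0.1 of log2 difference, on a log axis, for the 10541 genes above the floor, with coloured lines at the 6 members and dashed lines at 2-fold. Slamf6 at -1.65 and Slamf1 at 1.00 lie in opposite tails, and the other 4 members lie between -0.34 and 0.15.

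By the rule for likeness, the 3 named genes whose difference came nearest to that of Slamf6 among 8379 genes above background on both arrays were Pecam1, Ifi205 and Eno3. Pecam1, the adhesion molecule CD31, read 113.5 and 36.4 units, a difference of -1.64. Ifi205, an interferon-inducible gene of the PYHIN family, read 855.1 and 278.0 units, a difference of -1.62. Eno3, the muscle form of enolase, read 1043 and 320.2 units, a difference of -1.70. Likeness over 2 arrays means only a difference of similar size.

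Most genes that work with the SLAM receptors were within 1.5-fold between the arrays, as were most genes in all. CD2 is another receptor for CD48, and Cd2 read 4359 units in the Wt APC culture and 4639 units in the OX40L-Tg APC culture, a difference of 0.09. Cd2ap, Cd2bp2 and Pstpip1, which encode proteins that bind the tail of CD2, differed by -0.11, -0.03 and -0.01. Of 24 signalling partners of SLAM receptors and SAP listed, 20 had a value and 19 were above the floor. By the brightest probe set of each gene, none of the 19 passed 2-fold and 17 were within 1.5-fold. By the same probe sets 10 were higher and 9 lower, and the median was 0.00. With 2.72% of all genes past 2-fold and 7.21% past 1.5-fold, these counts do not set the list apart. Fyn, the kinase that SAP recruits, read 977.7 and 616.1 units, a difference of -0.67 that was -0.58 in its other probe set. Dok2, an adaptor that restrains T cell receptor signalling, read 230.8 and 353.0 units, a difference of 0.61. These 2 genes were the ones past 1.5-fold in their brightest probe set. Dgka, a diacylglycerol kinase that SAP is known to restrain, differed by -0.48, and Prkcq, the protein kinase C theta that SLAM engages toward NF-kB, by -0.30. Malt1, which works with Bcl10 in that step, differed by 0.38 in its brightest probe set. Another of its probe sets, whose level is not given here, differed by 1.21, past 2-fold. Bcl10 read 499.7 and 500.1 units. Plcg2, a phospholipase C, differed by 0.34.

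Of 7 partners of TSAd listed, 5 reached the floor, 1 was 2-fold lower or more and 4 were within 1.5-fold. The share of genes lower by that much in the whole series was 1.17%, and with 5 genes the count is a description only. Kdr, 1 of the 4, was below background on both arrays, at 12.8 units for Wt APC and 16.9 units for OX40L-Tg APC. Txk, a Tec family kinase of T cells, read 283.6 units in the Wt APC culture and 38.4 units in the OX40L-Tg APC culture, 7.38-fold lower in its only probe set. Lat, the scaffold of T cell receptor signalling, differed by -0.15, Nck1 by 0.23 and Grb2 by 0.21, both of them adaptors of the actin and Ras routes. The other probe set of Nck1 differed by -0.05. Lck had no probe set with a single symbol and was not analysed here. The receptors Slamf8 and Slamf9 and the SAP relative Sh2d1b1, which belong mainly to myeloid and NK cells, were below background on both arrays, with the highest of their 6 values at 20.3 units.

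T helper genes tied to SLAM and SAP signalling went both ways, with the largest differences on the positive side. Of 12 listed, 11 reached the floor, and their median was -0.20. Of these 11, 4 were higher by 2-fold or more, 0 lower by as much and 7 were lower at all. In the whole series, the matching shares of the 10541 genes reaching the floor were 1.56%, 1.17% and 46.0%. The list was chosen with earlier results of these data known, so its counts are a description only. Il4, the cytokine whose production SAP is known to aid, read 261.8 units in the Wt APC culture and 2711 units in the OX40L-Tg APC culture, a difference of 3.37. Il13 differed by 3.11 and Gata3, the factor of type 2 helper cells, by 1.16. Il21, the cytokine of follicular helper cells, was below background at 25.6 units in the Wt APC culture and read 1413 units, at least 47.4-fold higher, in the other. Its remaining probe set differed by 3.39. Ifng, the type 1 cytokine, differed by -0.83 and Pdcd1, the inhibitory receptor PD-1, by -0.54. Icos and Cxcr5, both surface proteins of follicular helper cells, differed by -0.33 and -0.20. Bcl6, the factor of these cells, and Zbtb16, the factor of NKT cells, were below background on both arrays. For Bcl6 that call was narrow in the Wt APC culture, at 28.8 units.

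**Figure D3:**
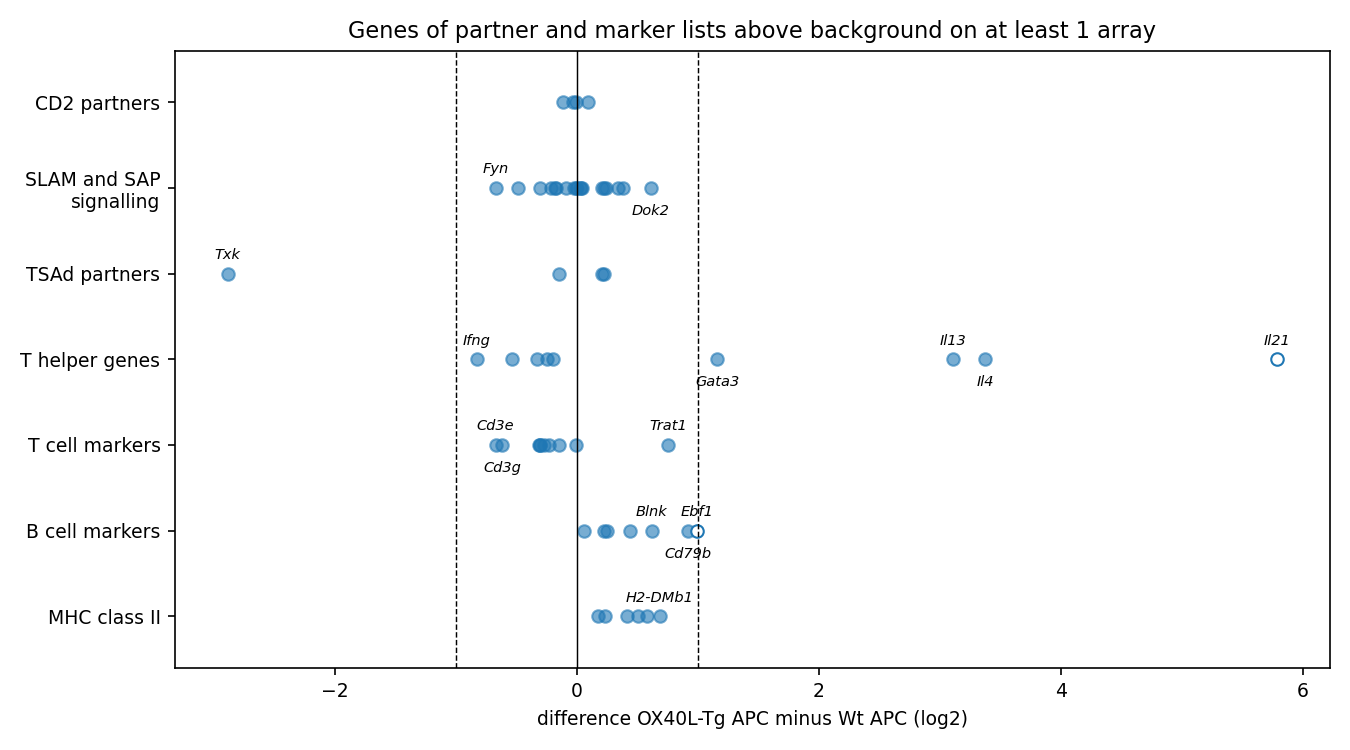
Difference OX40L-Tg APC minus Wt APC (log2) of each gene above background on at least 1 array, by list, with dashed lines at 2-fold and names at differences over 0.6. Open points (Il21 and Ebf1) have 1 value below background, so their place shows no measured size. The CD2 and signalling lists crowd around 0, whereas Txk lies at -2.88 and Il4, Il13 and Gata3 between 1.16 and 3.37.

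Markers of T cells and of some other cell types also differed between the arrays, while those of several types were low and close in sum. Of 12 T cell markers, 10 had a value and all of these were above background. Lower with OX40L-Tg APC were 9 of the 10, against 46.0% of all genes above the floor, of which 54.0% were higher. The median of the 10 was -0.29, and their sum was 21598 units in the Wt APC culture and 17633 units in the OX40L-Tg APC culture. The lowest of these markers was Cd3e at -0.67. Of the members, Sh2d1a, Sh2d2a, Cd84 and Slamf6 were lower too, at -0.17, -0.34, -0.33 and -1.65, whereas Slamf1 and Ly9 were higher, at 1.00 and 0.15. A link between members and markers was not tested. B cell markers were higher in 8 of 8 genes above the floor, with a median of 0.35 and a sum over 11 genes of 984 and 1370 units. Among the 8, Vpreb3 was below background on both arrays and Ebf1 on the Wt APC array. Pax5, the factor that defines B cells, was below the floor at 10.8 and 12.1 units. MHC class II genes of APC were higher in 6 of 6 above the floor, with a median of 0.46 and a sum over 7 genes of 2700 and 3605 units, and Ciita, their master regulator, was below the floor. B cells also carry Slamf1, Ly9, Cd84 and Slamf6, and the part of such cells in the members' differences was not tested. The 4 NK markers with a value summed to 46 and 42 units, with Ncr1, the receptor that defines NK cells, at 12.3 and 11.8 units. The 9 macrophage markers summed to 103 and 118 units, the 6 dendritic cell markers to 115 and 123 units, the 7 neutrophil markers to 110 and 97 units and the 4 platelet markers to 57 and 54 units. Above background on at least 1 array were 2 of the dendritic cell markers and 1 each of the macrophage, neutrophil and platelet markers. Of these, only Flt3, a dendritic cell marker, was above it on both arrays, at 46.1 and 43.3 units. The 2 CD8 markers summed to 219 and 270 units, mostly Cd8b1 at 191.4 and 239.3 units. The 3 erythroid genes summed to 1190 and 232 units, of which Hba-a1, an alpha globin gene, read 1161 and 207.3 units in its brightest probe set. That probe set differed by -2.49, the lowest of the gene's 3, which ranged up to -0.997. The extraction protocol in the labels names adipose tissue, whereas the 4 adipocyte markers with a value summed to 43 units on both arrays and none was above background.

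Moving from one processing to another left the direction of all 6 members above the floor as it was. Ly9 stayed between 0.12 and 0.15, Cd84 between -0.36 and -0.31, Sh2d1a between -0.19 and -0.16 and Sh2d2a between -0.38 and -0.33. Cd244 ran from -0.22 to 0.10, with its values below the floor. Spike-in control RNAs of the array, 18 probe sets, differed by -0.03 to 0.32, a range that holds the difference of Ly9. The difference of Sh2d1a, at -0.17, was below that range, though smaller in size than 0.32.

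**Figure D4:**
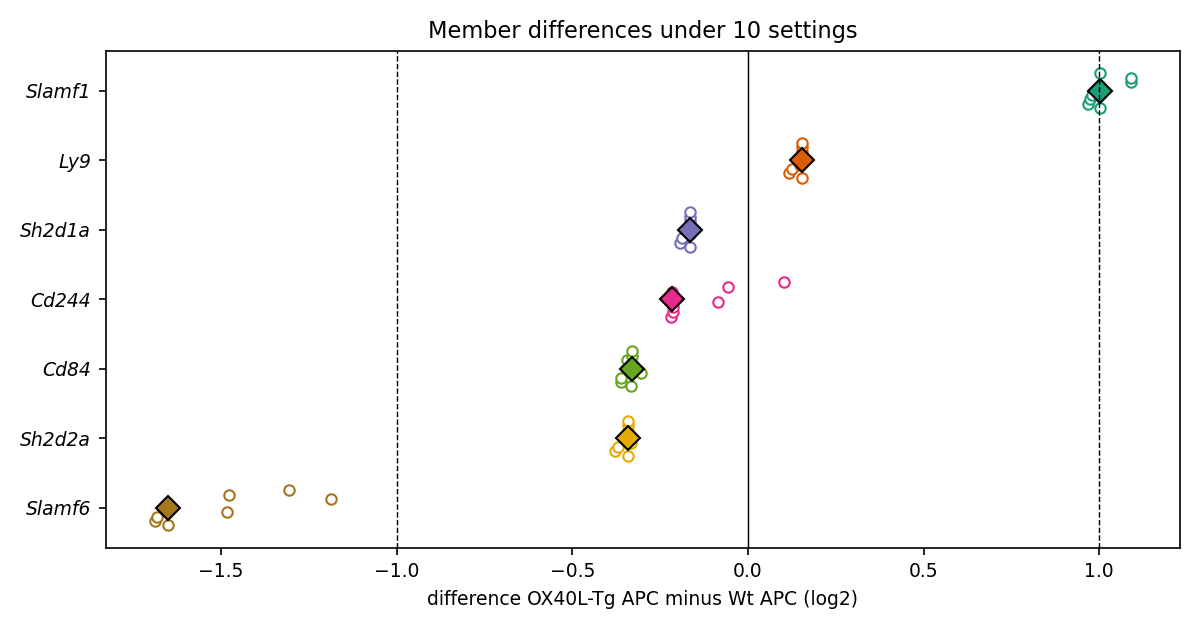
Difference OX40L-Tg APC minus Wt APC (log2) of each measured member under the main setting (diamond) and 9 alternatives (circles, set apart vertically for sight), of which the mean of probe sets above the floor gave no value for Cd244, with dashed lines at 2-fold. Slamf1 straddles the line at 1.00, Slamf6 stays beyond the opposite one, and the circles of Cd244 fall on both sides of 0.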

How the data were processed

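The authors deposited linear intensities per probe set, which the submitters' processing notes credit to RMA of an unnamed version. Both arrays had a median of 14.7 units. RMA equalises arrays and compresses low values, so folds of dim genes are understated and a change in total RNA per cell leaves no trace. The number of arrays limits the precision. Of 45141 probe sets, 28898 carry 1 symbol in the platform annotation, 551 several and 15692 are not listed. Here log2 was taken, a gene took its probe set with the highest mean, and background was set at the 95th percentile of 61 organ-restricted genes. Named were all members, genes between them on the chromosome, the 3 nearest in difference to the leading member, and up to 6 genes of each list with the largest differences; others in the text were named after their values were seen. The members and lists were chosen with earlier results of these data known. Alternatives covered scaling, lowess (span 0.3), an offset, the floor and the choice of probe set. Calculations used Python 3.11.15, numpy 2.4.6, pandas 2.3.3, statsmodels 0.14.6 and matplotlib 3.10.9, and were tested on simulated data.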

Additional observations from a re-analysis of the deposited data

How the results depend on the processing

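Of 100 recomputed values, 46 were identical to the reported ones, many because the setting could not change them: a floor leaves a gene's own difference as it is, and Ly9, Sh2d1a and Sh2d2a have 1 probe set each. Another 40 moved by less than the scatter of 0.13 between probe sets of a gene or, for counts, by at most 1.5 times. The number of members at least 2-fold apart was 1 in place of 2 after quantile normalization, after the lowess correction and with an offset of 16 units, since Slamf1 then fell just under 2-fold. Genes at least 2-fold higher numbered 107 in place of 164 with the floor at the 75th percentile. Genes at least 2-fold lower numbered 65 in place of 123 with that floor and 69 with the offset. At 1.5-fold, 760 genes were apart in place of 287. Slamf6 was smaller in size at -1.48 with the offset, -1.48 as the mean of probe sets above the floor, -1.31 without shared probe sets and -1.19 as the mean of all its probe sets, which takes in one below the floor. Cd244, below background, was -0.09 with the offset, -0.06 as a mean and 0.10 without shared probe sets. The members' median stayed between -0.28 and -0.22. Values below background limit what can be said of Cd244, and 1 array per condition allows no test.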
